A study of Homo sapiens with 12 samples.

Results

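The clustered replication-dependent histone genes of HCT116 cells, an established human colorectal cancer cell line with functional p53, are described here in *WT* cells and in cells lacking miR-34a/b/c (*miR-34a/b/c-KO*, here *KO*) exposed to 5-FU or DMSO. Genes were taken by symbol (H1-1 to H1-6 and all numbered H2AC, H2BC, H3C and H4C genes), and 20 counts or more were required in 1 library or more. Of 66 such genes among the 60580 listed, 14 passed: *H1-2*; *H2AC6*, *H2AC11*, *H2AC18* and *H2AC19*; *H2BC4*, *H2BC5*, *H2BC12*, *H2BC15* and *H2BC21*; *H3C6* and *H3C10*; *H4C14* and *H4C15*. A gene could pass through any of the 4 states, and none of the 14 reached 20 counts in 1 state only.

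Replication-dependent histones package newly made DNA, and their genes are transcribed mainly in S phase from clusters on chromosomes 6 and 1. Their mRNAs are unusual in ending at a conserved stem-loop in place of a poly(A) tail. The stem-loop is bound by SLBP, and the pre-mRNA is cut just after it with help of the U7 snRNP. The stem-loop is read again when the mRNA is degraded at the end of replication. Replacement histones, in contrast, are mostly encoded by polyadenylated mRNAs that are not confined to S phase.

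The stem-loop of each gene is shown because it defines the class and because it marks where the usual mRNA ends. It was searched on the coding strand of GRCh38 as the stem GGCNCT, the loop TTTC and the returning stem AGNGCC, within 150 bases after the last coding base and with up to 2 mismatches. Each of the 14 genes had a match, 8 of them without a mismatch, as had each of the 52 genes that did not pass, 40 without a mismatch. The matches of the 14 genes lay 31 to 71 bases after the last coding base, in the 3' UTR. They fell into 5 sequences, in which capitals mark the 4 bases of the loop:
H1-2, H2AC6, H2AC18, H2AC19, H2BC15, H2BC21, H3C10: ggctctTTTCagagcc
H2AC11: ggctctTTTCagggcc
H2BC4, H2BC5, H2BC12: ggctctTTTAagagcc
H3C6: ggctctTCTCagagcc
H4C14, H4C15: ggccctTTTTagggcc
The 3 H2B genes *H2BC4*, *H2BC5* and *H2BC12*, *H3C6* and both H4 genes differed from the consensus in the loop. The stem-loop of *H2BC5* lies at chr6:26158587-26158602 on the plus strand, that of *H2AC6* at chr6:26124669-26124684 (plus), that of *H3C6* at chr6:26225596-26225611 (plus) and that of *H1-2* at chr6:26055744-26055759 (minus). Those on chromosome 1 include *H4C14* at chr1:149833032-149833047 (plus) and *H2AC18* at chr1:149842223-149842238 (minus). In all, 9 of the 14 genes lie on chromosome 6 and 5 on chromosome 1 (*H4C14*, *H2AC18*, *H2AC19*, *H4C15* and *H2BC21*).

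Annotated transcript ends differed among the 14 genes. GENCODE release 44 lists at least 1 transcript that runs more than 100 bases past the stem-loop for 9 of the 14 genes (64.3%) and for 5 of the 52 others (9.62%). Such transcripts are listed for *H4C14*, *H4C15*, *H2BC4*, *H2BC5*, *H2BC15*, *H2BC21*, *H2AC6*, *H3C6* and *H3C10*, but not for *H1-2*, *H2AC11*, *H2AC18*, *H2AC19* and *H2BC12*. The farthest end of the *H2BC5* transcripts lies 12747 bases past its stem-loop, that of *H2AC6* 14432 bases, that of *H3C6* 1862 bases and that of *H2BC21* 1729 bases. As the files hold 1 count per gene, counts on the short and the long transcripts cannot be told apart. The limit of 20 counts that chose the 14 genes may hold both. The release of the annotation used for counting is not given, so that whether it listed the long transcripts is not known. Exons of the long *H2BC4* transcripts overlap those of *HFE* and of an unnamed gene, which also overlaps *H2AC6*. Whether counting used the strand is not given in the sources used here.

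**Figure D1:**
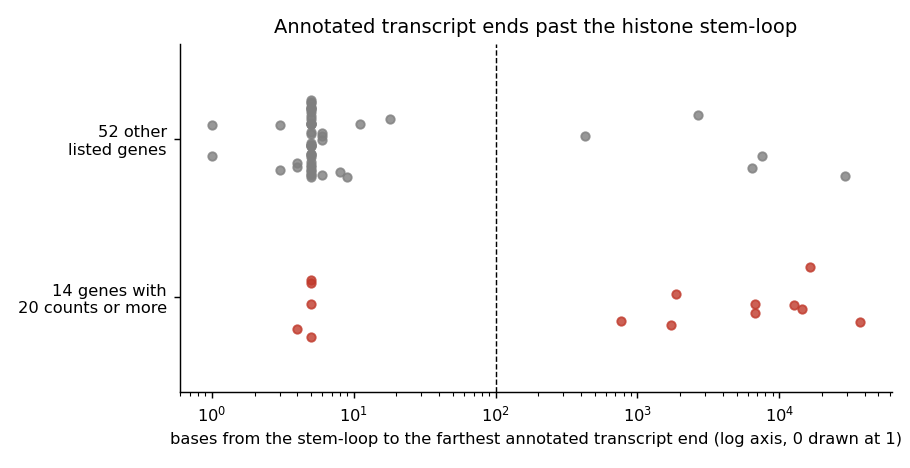
Distance in bases (log axis) from the stem-loop to the farthest annotated transcript end, 1 point per gene, with vertical scatter added for display. Right of the dashed line at 100 bases lie 9 of the 14 genes with at least 20 counts and 5 of the 52 other listed genes.

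*WT* and *KO* cells are single-cell-derived clones of HCT116. In *KO* cells the regions encoding miR-34a and miR-34b/c were deleted with CRISPR-Cas9, and *WT* clones had received the Cas9 plasmid without guide RNA. Cells of each genotype were treated with DMSO or with 5-FU, a pyrimidine analog that blocks thymidylate synthesis, for 48 h, and 3 libraries per state were deposited. Whether the 3 libraries are different clones is not stated, so that p-values measure the spread between these libraries, and clone and genotype cannot be told apart. The file of *WT* cells under 5-FU, replicate 1, was identical to that of *WT* cells in DMSO, replicate 3, in all genes and was left out. This left 11 libraries, with n = 2 for *WT* cells under 5-FU and n = 3 for the other states.

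Libraries held 22831415 to 39064210 counts. The hairpins *MIR34A*, *MIR34B* and *MIR34C* were at 0 in all libraries, also in *WT* cells, and did not check the genotype. The host gene *MIR34AHG*, of which only a part was deleted, was at 4.84 CPM in *WT* and 22.2 CPM in *KO* cells in DMSO and checks nothing either. The p53 target *CDKN1A* rose from 167 CPM (counts per 1000000 counts of the scaled library) to 2078 CPM in *WT* cells and from 469 to 2481 CPM in *KO* cells after 5-FU. The epithelial markers *EPCAM* (296 to 443 CPM), *KRT8*, *KRT18*, *CDH1* and *CDX2* were present in all libraries, whereas *VIL1* was at most at 2.21 CPM. *COL1A1* reached 70.5 CPM, but the other markers of fibroblasts, leukocytes and endothelium (*COL1A2*, *PDGFRB*, *PTPRC* and *PECAM1*) did not exceed 26 counts in any library. In these bulk samples, a different share of cells in S phase and a different amount of histone mRNA per cell cannot be told apart.

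The clustered histone genes were counted at low levels. Together the 14 genes took 0.00223 to 0.00438% of a library. They held 10369 of the 11165 counts on all 66 genes (92.9%). Of the 52 other genes, 17 were at 0 in every library and 38 had at most 3 counts in every library, where a count of 0 allows 0.0777 to 0.132 CPM (3 counts). The genes just below the limit were *H2BC18* (highest library 18 counts), *H4C11* (17), *H4C3* (15) and *H4C5* (13), and those just above it *H2BC4* (25), *H3C10* (29), *H2BC21* (34) and *H2AC11* (54). 6 genes had at least 20 counts in every library (*H1-2*, *H2AC6*, *H2AC11*, *H2BC5*, *H2BC12* and *H3C6*).

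Per kilobase of annotated exon, the 14 genes had a median level of 1.57 CPM in *WT* cells in DMSO, compared with 45.3 CPM for the 10 replacement histones. These mRNAs differ in the poly(A) tail, and whether poly(A) selection was used is not given. The values therefore do not compare amounts of mRNA in the cells. In *WT* cells the highest value among the 14 was that of *H2BC5*, with 4.53 CPM per kilobase in DMSO and 8.97 after 5-FU, whereas in *KO* cells in DMSO *H1-2* was highest, with 6.29 compared with 5.48 CPM per kilobase for *H2BC5*. In *WT* cells in DMSO *H1-2*, the linker histone, was at 3.90 and *H2BC12*, a core histone gene with no long transcript listed, at 3.24 CPM per kilobase. Levels per kilobase depend on the long transcripts counted as exon length, which make up most of the length of *H2BC15* (4265 bases) and *H3C6* (2679 bases).

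Levels of RNAs without a poly(A) tail were uneven. *RN7SL1*, the RNA of the signal recognition particle, had 96 to 3619 counts and *RN7SK*, an inhibitor of transcription elongation, 0 to 141 counts. The U snRNAs listed were at 0 or 1 count in every library, *RNU7-1* of the U7 snRNP at 0. Of 20 such RNAs listed, 19 were found in the files and 6 passed the filter. None of the 6 was called in any comparison by edgeR or DESeq2, with 0 to 2 at an unadjusted p < 0.05 by edgeR. The CPM of the 19 RNAs found summed to 7.69 to 56.5 in *WT* cells in DMSO, to 25.9 to 112 in *KO* cells in DMSO, to 38.4 to 121 in *WT* cells and to 63.7 to 293 in *KO* cells under 5-FU, the highest of these being in replicate 1, where *RN7SL1* had 143 CPM and *RN7SL2*, a related copy, 139 CPM. Whether poly(A) selection or rRNA depletion was used is not given in the sources used here, and the part of these RNAs in the results was not tested.

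4 of the 14 genes form 2 pairs of copies that share reads. *H2AC18* (chr1:149842218-149842750) and *H2AC19* (chr1:149851061-149851594), which encode H2A, have identical coding sequences of 390 bases. *H4C14* (chr1:149832657-149839767) and *H4C15* (chr1:149854045-149861159), which encode H4, are identical over 309 coding bases. Of all windows of 150 bases in their principal transcripts, 99.7 to 100% occurred in the other copy, compared with 0% for the 10 other genes.

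Counts switched between the copies of a pair from library to library. *H2AC18* had 43, 0 and 80 counts in *WT* cells in DMSO, 86, 39 and 47 in *KO* cells in DMSO, 0 and 0 in *WT* cells and 25, 0 and 0 in *KO* cells under 5-FU. *H2AC19* had 40, 43 and 0, then 0, 63 and 66, then 89 and 56, then 69, 89 and 59 counts in the same order. In 7 of the 11 libraries exactly 1 of both copies was at 0, whereas their sum ranged from 43 to 113 counts. Within states, the counts of *H2AC18* varied 19.1 times and those of *H2AC19* 17.3 times as much as counting error gives (chi-square divided by 7 degrees of freedom), and the sum 2.31 times. For *H4C14* and *H4C15* these values were 8.70 and 12.4, and 2.54 for the sum, while the 10 other genes ranged from 0.86 to 4.54. Values of these 4 genes alone are therefore uncertain, and the counts of each pair were also added and fitted again, an alternative chosen after seeing the data.

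**Figure D2:**
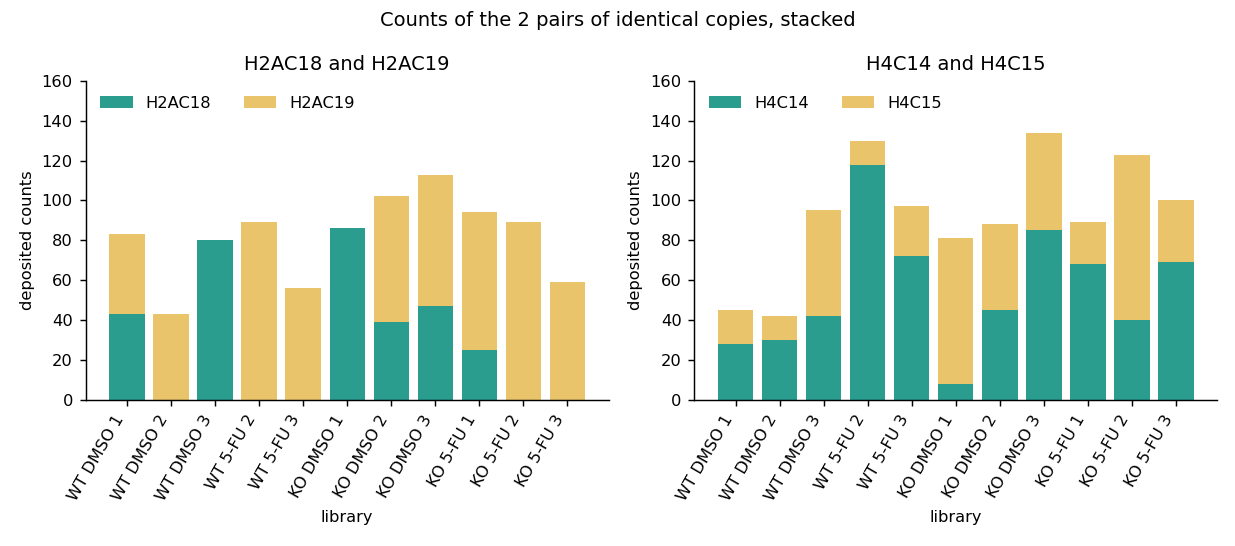
Deposited counts (y axis) of the identical copies *H2AC18* and *H2AC19* (left) and *H4C14* and *H4C15* (right), stacked, in each of the 11 libraries (x axis). In 7 libraries all counts of the left pair lie on 1 copy, while the stacked height ranges from 43 to 113 counts.

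To determine whether loss of miR-34 alone was accompanied by altered histone mRNA levels, *KO* and *WT* cells in DMSO were compared. 4 of the 14 genes were upregulated (FDR < 0.05 and more than 1.5-fold, edgeR) and 0 downregulated, compared with 9.1% and 4.97% of all 16123 genes tested. The median log2 difference of the 14 genes was 0.62, and that of all genes 0.03. No member was lower at an unadjusted p < 0.05 (0 of 14, edgeR) or by DESeq2 (0), and 7 were higher at that p. DESeq2 called 3 higher, without *H2AC11*.

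*H2BC15*, which encodes H2B, had 40, 13 and 30 counts in *WT* cells and 42, 62 and 69 counts in *KO* cells in DMSO. Its CPM was higher in every *KO* library, with means of 0.962 ± 0.443 (SD, n = 3) and 2.22 ± 0.445 CPM (SD, n = 3). The log2 fold change was 1.19 (edgeR, SE 0.30, FDR 0.00359), and this call did not depend on any of the 11 libraries. *H3C6*, which encodes H3, had 3.21, 2.21 and 3.36 CPM in *WT* cells and 4.51, 4.39 and 5.40 CPM in *KO* cells. These libraries did not overlap, and the log2 fold change was 0.69 (edgeR, SE 0.17, FDR 0.00288). Without replicate 2 of *WT* cells, its lowest library, it was 0.54, and without replicate 3 of *KO* cells 0.58, both below the minimum fold change.

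*H1-2* had 2.89, 2.47 and 3.19 CPM in *WT* cells and 3.30, 5.32 and 5.17 CPM in *KO* cells in DMSO. The groups did not overlap, although replicate 1 of *KO* cells lay close to the *WT* range. Its log2 fold change of 0.68 (edgeR, SE 0.19, FDR 0.00881) dropped to 0.57 without replicate 2 and to 0.58 without replicate 3 of *KO* cells. *H2AC11*, which encodes H2A, rose from 1.01 ± 0.0987 to 1.64 ± 0.176 CPM (SD, n = 3 each) with no overlap, by 0.69 on the log2 scale (edgeR, SE 0.25, FDR 0.0314). Its FDR was 0.0699 to 0.0893 (edgeR) without replicate 1 or 2 of *KO* or replicate 2 or 3 of *WT* cells, at 21 to 44 counts per library.

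Of the genes with the most counts, *H2AC6* had 4.87, 4.85 and 4.95 CPM in *WT* cells and 7.56, 5.92 and 6.19 CPM in *KO* cells in DMSO. All 3 *KO* libraries were higher, and the log2 difference of 0.42 (edgeR, SE 0.12, FDR 0.00983) was below the minimum fold change. By FDR alone, 5 of the 14 genes were higher, compared with 24.5% of all genes. *H2BC5* had 3.43 to 4.26 CPM and 4.47 to 4.87 CPM, a log2 difference of 0.27 (edgeR, SE 0.13, FDR 0.0887). *H2BC12* and *H3C10* overlapped between both genotypes, with log2 differences of 0.50 (FDR 0.16, edgeR) and 0.60 (FDR 0.21, edgeR).

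With their counts added, both pairs of identical copies were higher in *KO* cells in DMSO. *H4C14* and *H4C15* together had 1.62, 1.85 and 2.75 CPM in *WT* cells and 3.38, 3.75 and 4.41 CPM in *KO* cells. The groups did not overlap, and the log2 fold change was 0.87 (edgeR, SE 0.19, FDR 0.00149). *H2AC18* and *H2AC19* together had 83, 43 and 80 counts in *WT* cells and 86, 102 and 113 counts in *KO* cells, or 2.40 ± 0.555 and 3.89 ± 0.402 CPM (SD, n = 3 each), with no overlap of the CPM. This amounted to a log2 fold change of 0.68 (edgeR, SE 0.19, FDR 0.00878), and to 0.55 without replicate 2 of *WT* cells. Counted in this way, 6 of 12 features were called higher and 0 lower (edgeR). Fitted as single copies, none of these 4 genes was called by edgeR. *H4C14* had 8, 45 and 85 counts in *KO* cells and was called, at 1.01 (FDR 0.0117, edgeR), only without the first of these libraries, replicate 1. *H4C15* had a log2 difference of 1.21 (FDR 0.0509, edgeR), with FDR 0.0136 to 0.0422 (edgeR) without replicate 3 of *WT* cells in DMSO, replicate 2 or 3 of *WT* cells under 5-FU, or replicate 1 or 2 of *KO* cells under 5-FU.

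**Figure D3:**
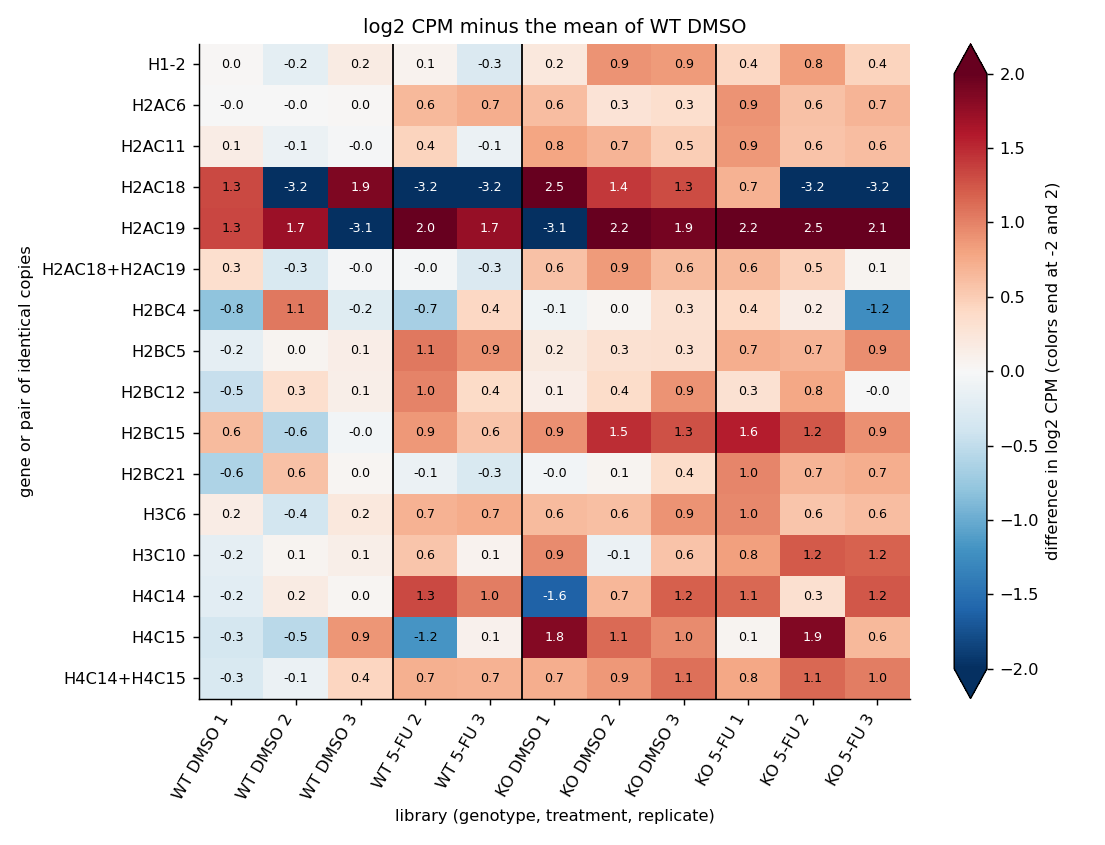
Difference in log2 CPM (prior count 2) from the mean of the *WT* DMSO libraries, for the 14 genes and the 2 added pairs (rows) in the 11 libraries (columns, replicate number last). *H2AC18* and *H2AC19* alternate between strongly negative and positive values, and their sum does not. *H2BC5* is positive in all libraries treated with 5-FU and in all *KO* DMSO libraries, as are *H2AC6*, *H3C6* and other rows.

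Next, the response of *WT* cells to 5-FU was determined. 5 of the 14 genes were upregulated and 1 downregulated (edgeR), compared with 18.5% and 9.38% of all genes tested. The median log2 fold change of the 14 genes was 0.53, and that of all genes 0.03. This comparison shares the 3 *WT* DMSO libraries with the comparison above, so that a low value in these libraries moves both.

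*H2BC5*, which encodes H2B, had 95, 91 and 147 counts in *WT* cells in DMSO and 314 and 213 counts after 5-FU, and thereby 3.43, 4.01 and 4.26 compared with 8.14 and 7.30 CPM. Both libraries treated with 5-FU were far above the DMSO libraries. Its log2 fold change of 0.98 (edgeR, SE 0.13, FDR 6.33e-06) passed also without any 1 of the 11 libraries. *H2AC6*, which encodes H2A, rose from 4.87, 4.85 and 4.95 to 7.67 and 8.12 CPM, with no overlap. The log2 fold change was 0.69 (edgeR, SE 0.13, FDR 0.000227), and this call also held without any 1 library.

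*H3C6* had 4.69 and 4.87 CPM after 5-FU, above the 2.21 to 3.36 CPM of the DMSO libraries. The log2 fold change of 0.69 (edgeR, SE 0.18, FDR 0.00348) dropped to 0.54 without replicate 2 of *WT* cells in DMSO. *H2BC12*, which encodes H2B, had 1.12, 1.99 and 1.71 CPM in DMSO and 3.16 and 2.06 CPM after 5-FU. The second 5-FU value lay just above the DMSO range, and the log2 fold change of 0.72 (SE 0.30) only just passed (FDR 0.048, edgeR). It was lost without replicate 1 or 3 of *WT* cells in DMSO, replicate 2 of *WT* cells under 5-FU, replicate 2 of *KO* cells in DMSO or replicate 1 of *KO* cells under 5-FU, and without replicate 2 of *WT* cells under 5-FU the value was 0.36 (FDR 0.443, edgeR). *H2BC15* had a log2 difference of 0.67 (FDR 0.0894, edgeR), and of 1.06 (FDR 0.0146, edgeR) without replicate 1 of *WT* cells in DMSO, its highest DMSO library.

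*H4C14* was called as a single copy, at a log2 fold change of 1.23 (edgeR, SE 0.46, FDR 0.0299), with 28, 30 and 42 counts in DMSO and 118 and 72 after 5-FU. *H4C15* had 17, 12 and 53 counts in DMSO and 12 and 25 counts after 5-FU, with a log2 difference of -0.72 (FDR 0.327, edgeR). Their sum rose from 2.08 ± 0.595 (SD, n = 3) to 3.35 ± 0.0326 CPM (SD, n = 2), by 0.67 on the log2 scale (edgeR, SE 0.21, FDR 0.0121). The FDR of the sum was 0.0517 without replicate 2 of *WT* cells under 5-FU and 0.0578 without replicate 1 of those treated with DMSO (edgeR), while that of *H4C14* alone was 0.0643 to 0.147 without replicate 1 or 3 in DMSO or replicate 2 under 5-FU.

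The single gene called lower, *H2AC18*, was at 0 in both 5-FU libraries, where 0 counts allow 0.0777 and 0.103 CPM, but also in replicate 2 of the DMSO libraries. With 3 counts in place of 0 in each 5-FU library, its mean CPM was 14.3-fold lower, a ratio given without a test. The log2 fold change was -8.24 (edgeR, SE 2.36, FDR 0.0071), and -8.19 without replicate 2 of *WT* cells under 5-FU. Added to *H2AC19*, which takes the same reads, the pair had 2.40 ± 0.555 CPM in DMSO (SD, n = 3) and 2.31 and 1.92 CPM after 5-FU, and the libraries overlapped. The log2 difference of the pair was -0.19 (edgeR, SE 0.22, FDR 0.497), so that with the copies added 5 of 12 features were called higher and 0 lower (edgeR). *H1-2* had 2.98 and 2.30 CPM after 5-FU, within or below its DMSO range, with a log2 difference of -0.11 (FDR 0.691, edgeR).

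In *KO* cells after 5-FU, 0 of the 14 genes were called higher and 1 lower (edgeR), compared with 13.3% and 12% of all genes tested, and the median log2 difference was 0.03, compared with -0.06 for all genes. 3 genes were higher at an unadjusted p < 0.05 by edgeR and 0 were called higher by DESeq2. *H2BC5* had 4.47, 4.81 and 4.87 CPM in DMSO and 6.46, 6.24 and 7.43 CPM after 5-FU. It was higher in each 5-FU library, by 0.51 on the log2 scale (edgeR, SE 0.12, FDR 0.00174), below the minimum fold change, as was *H2AC6*. By FDR alone, these 2 genes passed, compared with 26.6% of all genes. *H2AC6* had 7.56, 5.92 and 6.19 CPM in DMSO and 9.16, 7.36 and 7.89 CPM after 5-FU, with overlap and a log2 difference of 0.31 (edgeR, SE 0.12, FDR 0.029).

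*H3C6* was at 4.77 ± 0.551 CPM in *KO* cells in DMSO and at 4.80 ± 0.755 CPM after 5-FU (SD, n = 3 each). The log2 difference was 0.01 (edgeR, SE 0.16, FDR 0.982). *H2BC15* and *H2AC11*, both higher in *KO* cells before treatment, had log2 differences of 0.03 and 0.04 with overlapping libraries. *H2AC18* was the gene called lower, at -2.76 on the log2 scale (edgeR, SE 0.97, FDR 0.0222), with 25, 0 and 0 counts after 5-FU. This call was lost without replicate 1 of the DMSO libraries or without replicate 2 or 3 of the 5-FU libraries (FDR 0.0737 to 0.0862, edgeR), and its sum with *H2AC19* differed by -0.29 (FDR 0.202, edgeR). With the copies added, 0 of 12 features were called in either direction (edgeR and DESeq2), with 3 higher and 0 lower at an unadjusted p < 0.05 (edgeR).

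The difference between both responses to 5-FU, *KO* minus *WT*, was tested as an interaction. 1 of the 14 genes was called lower and 0 higher (edgeR), compared with 6.66% and 3.42% of all genes tested, with 3 lower and 0 higher at an unadjusted p < 0.05 and 0 called by DESeq2. The median of the 14 genes was -0.21, and that of all genes -0.10. The gene was *H3C6*, with -0.68 on the log2 scale (edgeR, SE 0.24, FDR 0.0469). Its FDR was 0.0543 to 0.124 without any 1 of 9 of the 11 libraries, the exceptions being replicate 3 of *WT* cells in DMSO and replicate 1 of *KO* cells under 5-FU, and 0 genes were called with TMM scaling. *H4C14* alone was called, at -1.25 (FDR 0.0307, edgeR), without replicate 1 of *KO* cells in DMSO. *H2BC5* differed by -0.48 (edgeR, SE 0.18, FDR 0.0573) and *H2AC6* by -0.38 (edgeR, SE 0.17, FDR 0.124), so that a smaller response in *KO* cells was not shown for either gene. The added H4 pair differed by -0.58 (edgeR, SE 0.28, FDR 0.135), and by -0.86 (FDR 0.0273, edgeR) without replicate 3 of *WT* cells in DMSO.

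After 5-FU, 3 of the 14 genes were higher and 0 lower in *KO* compared with *WT* cells (edgeR), beside 7.58% and 10.6% of all genes tested. None of the 14 was lower at an unadjusted p < 0.05 (0, edgeR) or by DESeq2 (0), and DESeq2 called 2 higher, without *H4C15*. *H1-2* had 2.98 and 2.30 CPM in *WT* cells and 3.81, 5.13 and 3.88 CPM in *KO* cells, with no overlap. Its log2 fold change of 0.69 (edgeR, SE 0.22, FDR 0.0155) was 0.52 without replicate 3 of *WT* cells and 0.53 without replicate 2 of *KO* cells. The interaction of *H1-2* was 0.00 (edgeR, SE 0.29, FDR 0.996), so that a difference between both treatments was not resolved in either direction. *H2BC21*, which encodes H2B, had 23 and 15 counts in *WT* cells and 34, 29 and 27 counts in *KO* cells, or 0.555 ± 0.0579 (SD, n = 2) and 1.18 ± 0.144 CPM (SD, n = 3). The log2 fold change of 1.08 (edgeR, SE 0.37, FDR 0.0235) was lost without replicate 2 or 3 of *WT* cells or replicate 1 of *KO* cells (FDR 0.0642 to 0.095, edgeR). *H4C15* was called at 1.63 (FDR 0.0302, edgeR) although its libraries overlapped, with 12 and 25 compared with 21, 83 and 31 counts. This call was lost without replicate 2 of *WT* (FDR 0.247, edgeR) or of *KO* cells (FDR 0.21, edgeR), and the added pair differed by 0.29 (FDR 0.246, edgeR). *H2AC18* alone was called (FDR 0.0492, edgeR) without replicate 2 of *WT* cells in DMSO, and its sum with *H2AC19* differed by 0.58 (FDR 0.0398, edgeR), below the minimum fold change, and by 0.73 (FDR 0.0159, edgeR) without replicate 3 of *KO* cells under 5-FU. With the copies added, 2 of 12 features were called higher and 0 lower (edgeR, DESeq2 0 lower).

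The summed level of the 14 genes does not depend on how reads were split between copies, and is given without a test since the genes were chosen with earlier results known. It was 23.7, 23.3 and 25.9 CPM in *WT* cells in DMSO, lower than in every other library. *KO* cells in DMSO had 34.1, 36.5 and 38.6 CPM and *WT* cells under 5-FU 37.0 and 33.8 CPM, which overlap each other. *KO* cells under 5-FU had 41.8, 40.1 and 37.5 CPM. The means were 24.3 ± 1.39 (SD, n = 3), 36.4 ± 2.26 (SD, n = 3), 35.4 ± 2.21 (SD, n = 2) and 39.8 ± 2.15 CPM (SD, n = 3), respectively. The sum was 1.49-fold higher in *KO* than in *WT* cells in DMSO, 1.46-fold higher after 5-FU in *WT* cells and 1.10-fold higher after 5-FU in *KO* cells, the last with overlapping libraries. Between genotypes under 5-FU it was 1.12-fold higher in *KO* cells, without overlap. Without the gene with the most counts of each family, the log2 ratio after 5-FU in *WT* cells was 0.16 in place of 0.54, and that between genotypes in DMSO 0.71 in place of 0.58. The genes left out there are *H1-2*, *H2AC6*, *H2BC5*, *H3C6* and *H4C14*. *H4C15*, the identical copy of *H4C14*, was kept, so that these ratios, unlike the full sum, depend on how reads were split between both copies.

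Sums per family are given in the same way, and differences between families were not tested. The H2B sum went from 7.75 ± 1.03 (SD, n = 3) to 12.9 ± 1.39 CPM (SD, n = 2) after 5-FU in *WT* cells and from 10.4 ± 1.30 to 12.7 ± 0.615 CPM (SD, n = 3 each) in *KO* cells, without overlap in either genotype. Most of this was *H2BC5*, whose mean went from 3.90 to 7.72 CPM in *WT* and from 4.72 to 6.71 CPM in *KO* cells. H2A, H3 and H4 sums did not overlap after 5-FU in *WT* cells (1.35-fold, 1.59-fold and 1.61-fold higher), but did in *KO* cells (1.07-fold, 1.07-fold and 1.06-fold). The H1 family, which is *H1-2* alone, overlapped after 5-FU in both genotypes (0.926-fold and 0.930-fold) and was 1.61-fold higher in *KO* cells in DMSO and 1.62-fold higher after 5-FU.

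**Figure D4:**
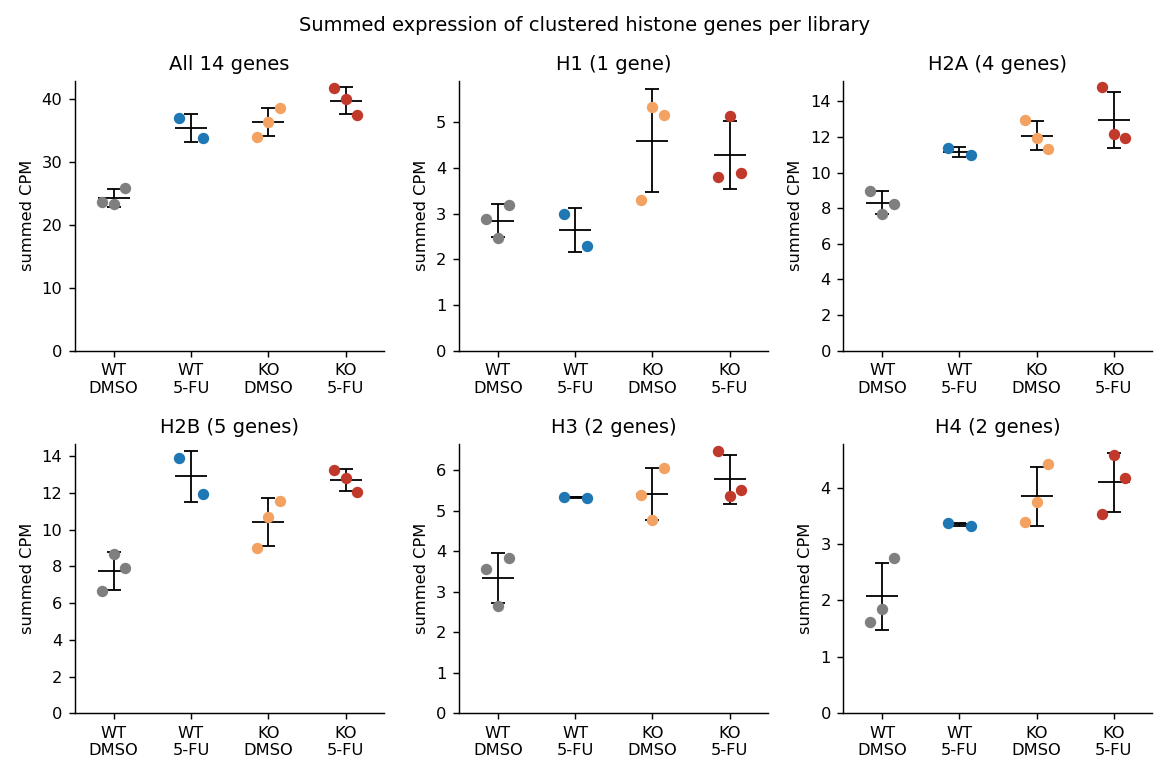
Summed CPM (y axis, from 0) of the 14 genes and of each family in the 4 states, 1 point per library, with mean and SD (n = 2 for *WT* 5-FU, n = 3 otherwise). The 3 *WT* DMSO libraries are lowest in the sum of all genes (23.3 to 25.9 CPM).

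Of 10 replacement histones tested, which are made outside S phase as well, 4 were called lower and 0 higher after 5-FU in *WT* cells and 2 lower and 0 higher in *KO* cells (edgeR). Of all genes, 9.38% were called lower and 18.5% higher in *WT* cells, and 12% lower and 13.3% higher in *KO* cells. These shares are the background also for the lists that follow. At an unadjusted p < 0.05 (edgeR), 0 and 1 of the 10 replacement histones were higher in *WT* and *KO* cells, respectively, and DESeq2 called 0 higher in both. Their median log2 fold changes were -0.52 and -0.41. *H2AZ1*, which encodes the variant H2A.Z, had 630, 698 and 594 CPM in *WT* cells in DMSO and 301 and 302 CPM after 5-FU. It fell by 1.09 on the log2 scale in *WT* cells (edgeR, SE 0.07, FDR 8.59e-10) and by 1.07 in *KO* cells (edgeR, SE 0.06, FDR 1.86e-10). *H1-10*, a linker histone, fell by 0.86 and 0.59, and *H2AZ2* and *CENPA*, the histone H3 of centromeres, fell by 0.70 and 0.81 in *WT* cells. *H3-3A* and *H3-3B*, which encode H3.3, had log2 differences of -0.32 and -0.29 in *WT* cells and of -0.40 and -0.22 in *KO* cells. *H2AX*, *H2AJ*, *MACROH2A1* and *MACROH2A2* had log2 differences of -0.54 to 0.19 in both genotypes, all below the minimum fold change.

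Between genotypes in DMSO, 0 of the 10 replacement histones were called in either direction (edgeR and DESeq2), with 3 lower and 0 higher at an unadjusted p < 0.05 (edgeR). Their median log2 difference was -0.09, compared with 0.62 for the 14 clustered genes.

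Of 9 regulators of histone gene transcription, 5 were called lower and 0 higher after 5-FU in *WT* cells (edgeR; 1 higher at an unadjusted p < 0.05, 0 by DESeq2), and 1 higher and 0 lower in *KO* cells (2 lower at that p, 0 by DESeq2). The gene that was higher in *WT* cells was *HINFP*, by 0.48 on the log2 scale (FDR 3.46e-05, edgeR). It was also higher in *KO* cells, by 0.45 (FDR 3.13e-05, edgeR), both below the minimum fold change. 7 of the 9 were called higher in the interaction (edgeR), compared with 3.42% of all genes. *CASP8AP2*, which encodes the histone locus body protein FLASH, had 44.9, 45.5 and 46.8 CPM in *WT* cells in DMSO and 18.6 and 25.2 CPM after 5-FU. It fell by 1.07 (edgeR, SE 0.11, FDR 3.25e-07), and its log2 difference in *KO* cells was -0.30 (FDR 0.0107, edgeR). *NPAT*, the coactivator of histone genes phosphorylated by CDK2, differed by -0.59 in *WT* and by 0.15 in *KO* cells, and its interaction of 0.73 (edgeR, SE 0.12, FDR 0.000261) was called. The largest change was that of *CCNE2*, a cyclin E gene, which fell by 1.19 in *WT* cells and rose by 1.62 in *KO* cells.

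*SLBP*, which binds the stem-loop, had 170, 169 and 166 CPM in *WT* cells in DMSO and 95.5 and 102 CPM after 5-FU. In *KO* cells it had 125, 129 and 124 CPM in DMSO and 121, 119 and 117 CPM after 5-FU. It fell by 0.77 on the log2 scale in *WT* cells (edgeR, SE 0.05, FDR 1.72e-09), while the difference in *KO* cells was -0.08 (FDR 0.13, edgeR), and the interaction was 0.69 (edgeR, SE 0.07, FDR 2.73e-06). Of 21 genes of histone pre-mRNA processing, 3 were called lower and 0 higher in each genotype after 5-FU (edgeR), with 1 and 4 higher at an unadjusted p < 0.05, and 0 by DESeq2. The others were *SNRPF* and *SNRPG* in *WT* and *SNRPE*, *SNRPF* and *SNRPG* in *KO* cells, which encode Sm proteins shared with the spliceosome. *LSM10*, *LSM11* and *ZNF473*, which encode proteins of the U7 snRNP, differed by 0.33, -0.43 and -0.15 in *WT* cells. Of 15 genes of histone mRNA decay and translation, 2 were called lower in *WT* and 4 in *KO* cells, and 0 higher in either (edgeR; 1 and 2 higher at an unadjusted p < 0.05, 0 by DESeq2). *ERI1*, the exonuclease that trims the stem-loop, fell by 0.81 and 0.75, and *LSM6*, of the decay complex LSM1-7, by 1.26 and 0.95.

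**Figure D5:**
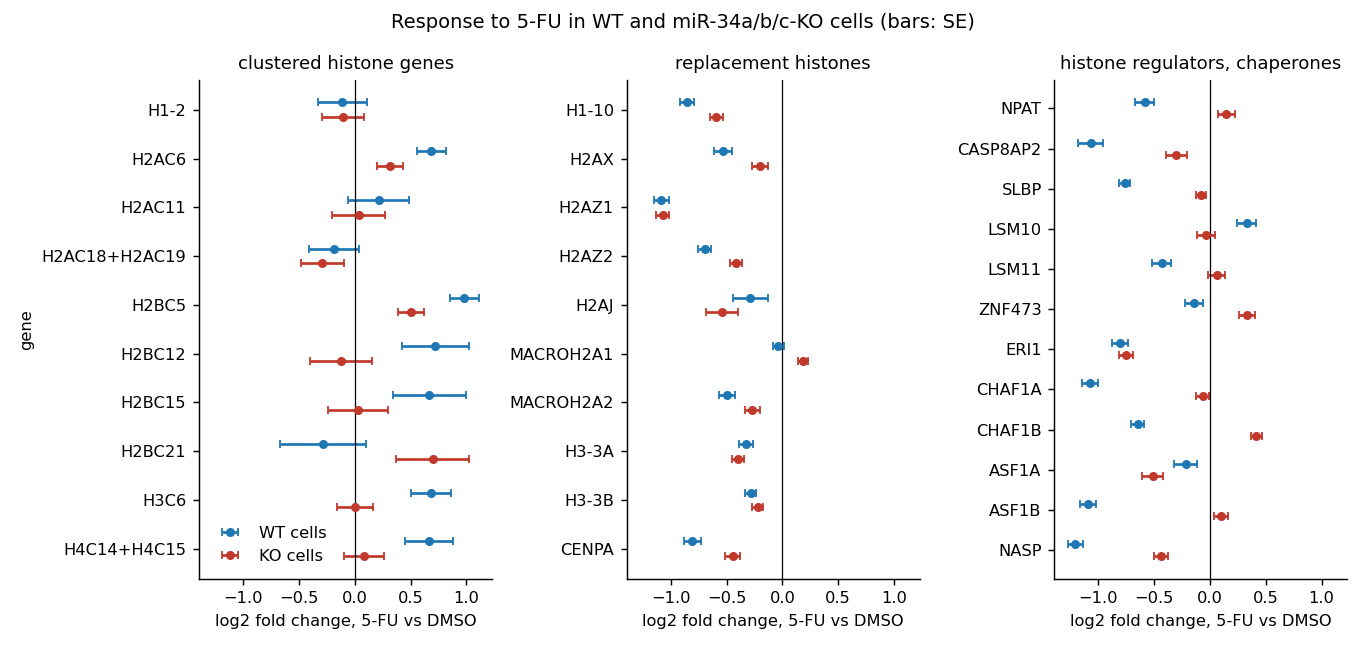
Log2 fold change (x axis) after 5-FU in *WT* and *KO* cells for clustered histone genes with a mean of at least 20 counts (identical copies added), replacement histones, and regulators and chaperones of histones, with SE as bars (edgeR). In *WT* cells *H2BC5*, *H2AC6*, *H3C6* and the H4 pair lie between 0.67 and 0.98, but *H2BC21*, the H2A pair and *H1-2* between -0.28 and -0.11. *SLBP*, *CASP8AP2*, *CHAF1A*, *ASF1B* and *NASP* lie between -1.21 and -0.77, but *ASF1A* and *ZNF473* at -0.22 and -0.15 and *LSM10* at 0.33.

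Of 21 histone chaperone genes, 8 were called lower and 0 higher in *WT* cells after 5-FU (edgeR; 1 higher at an unadjusted p < 0.05, 0 by DESeq2), and 2 lower and 1 higher in *KO* cells. *NASP*, which stores H3 and H4, fell by 1.21, *ASF1B* by 1.09 and *CHAF1A* and *CHAF1B*, subunits of the chromatin assembly factor CAF-1, by 1.08 and 0.65 in *WT* cells. The corresponding log2 differences in *KO* cells were -0.44, 0.10, -0.06 and 0.42, and all 4 interactions were called (0.77 to 1.19, edgeR). *ASF1A* differed by -0.22 and -0.52. Of 48 genes of DNA replication, 27 were called lower and 0 higher in *WT* cells (edgeR; 2 higher at an unadjusted p < 0.05, 0 by DESeq2), while 5 were higher and 4 lower in *KO* cells, and 29 were higher in the interaction. The shares of all genes were 13.3% higher and 12% lower in *KO* cells, and 3.42% higher in the interaction. The median log2 fold changes of the 48 genes were -0.65 in *WT* and 0.12 in *KO* cells, beside 0.53 and 0.03 for the 14 clustered histone genes. Between genotypes in DMSO their median was -0.39, with 5 lower and 0 higher (edgeR, 0 higher at an unadjusted p < 0.05 and by DESeq2). Of all genes, 4.97% were called lower there. By FDR alone, 42 of the 48 were lower, compared with 3529 of all 16123 genes. The part of the replication state of the cells in the histone values was not tested.

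Promoters (250 bases before to 50 after each start, RefSeq, GRCh38) of the 14 genes were searched for 3 motifs of histone promoters on both strands. The TATA box TATAAA occurred in 70.6% of 17 promoters of the 14 genes, in 66.7% of 48 promoters of the other clustered histone genes and in 11.5% of all 35116 promoters. CCAAT occurred in 88.2%, 85.4% and 34.6%, and the octamer ATGCAAAT, bound by OCT1, in 35.3%, 43.8% and 1.77%, respectively. The motifs were counted separately and none contains another, and promoters of the same gene overlap.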

How the data were processed

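RNA of 12 HCT116 samples was sequenced by the authors (random-primed cDNA, paired reads of 150 bases) and aligned to GRCh38 with CLC Genomics Workbench. The deposited values are raw counts per gene symbol, whole numbers without normalization. Samples were assigned by title. 1 library identical to another was left out. Column headers number the remaining *WT* 5-FU libraries 1 and 2, not 2 and 3.

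The 16123 genes that reached 20 counts in any library were fitted with edgeR 4.0.16 (R 4.3.3, upper-quartile factors, two-sided glmQLFTest after glmQLFit), with all 4 states in 1 model, with Benjamini-Hochberg adjustment over all genes (FDR). FDR < 0.05 and more than 1.5-fold were called. CPM were computed by edgeR, SE from the F statistic. Scaling, filter and thresholds follow the paper's methods, whose RUVg step was an alternative. The common biological coefficient of variation was 6.72%. Depth was 22831415 to 39064210 counts, and floors of 3 counts cover counting error only. Alternatives were TMM, DESeq2 1.42.0, other filters, no minimum fold change, glmTreat, RUVg, replicate blocks, leaving out each library and adding the identical copies. The scripts were tested on simulated data.

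The genes and companion lists (replacement histones, transcription, processing, decay, chaperones, cluster neighbors, RNAs without poly(A) tail, DNA replication) were chosen with earlier results of these data known. Named were up to 4 genes per family with the most counts, up to 5 called genes per comparison and direction with a mean of at least 20 counts, a set of regulators, the 10 replacement histones and the largest called change per list. 1 further item is not reported here. *DBP5* and *RMRP* were not matched to a symbol in the files. Stem-loops, exon lengths and positions are from GENCODE release 44 and GRCh38.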

Additional observations from a re-analysis of the deposited data

Results flagged for a closer look

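The log2 response of *H3C6* to 5-FU was lower by 0.68 in *KO* than in *WT* cells (interaction -0.68, FDR 0.0469, edgeR), which singled it out since the difference between both genotypes itself was tested. *H3C6* was at 2.93 ± 0.628 CPM in *WT* cells in DMSO (SD, n = 3) and between 4.77 and 4.80 CPM on average in the other 3 states. Of the *WT* DMSO libraries, replicate 2 had 50 counts and the others 89 and 116. Without that replicate the interaction was -0.53 (FDR 0.0918, edgeR), and the call was also lost without any 1 of 8 other libraries.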

How the results depend on the processing

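Counts of called genes among the 14 depended on the settings as follows. With TMM scaling or DESeq2, 0 genes were lower in the interaction, and with DESeq2 3 were higher after 5-FU in *WT* cells (*H2BC5*, *H2AC6* and *H3C6*) and 0 lower in *KO* cells. Without a filter, 1 gene (*H2AC19*) was higher after 5-FU in *KO* cells and 1 (*H2AC18*) higher in the interaction. With at least 20 counts in every library, 6 of the genes were tested, with 0 lower after 5-FU in either genotype and 1 higher between genotypes after 5-FU. Without a minimum fold change, 2 genes were higher after 5-FU in *KO* cells. With glmTreat, 1 gene (*H2BC5*) was higher after 5-FU in *WT* cells and 0 in either comparison between genotypes, with 0 lower in *KO* cells and in the interaction. With copies added, 0 single genes were lower after 5-FU in either genotype.

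With 1 RUVg factor, 98.2% of whose variance lay between treatments, all counts were 0, and *H1-2* between genotypes in DMSO (-0.78) and *H4C14* (-2.06), *H3C6* (-0.60) and *H2BC12* (-7.89) after 5-FU in *WT* cells reversed. The factor could not be told apart from the treatment, while 4.52% of its variance lay between genotypes. Of all 16123 genes, this fit called 3 higher and 0 lower after 5-FU in *WT* cells and 1 and 0 in *KO* cells. Between genotypes it called 783 higher and 645 lower in DMSO, and 1230 higher and 1760 lower under 5-FU. Without 1 library each, 2 to 5 genes were higher between genotypes in DMSO, 3 to 5 higher and 0 to 1 lower after 5-FU in *WT* cells, 0 to 1 lower in *KO* cells, 1 to 4 higher between genotypes after 5-FU, and 0 to 1 lower in the interaction. Log2 ratios of the summed CPM were 0.54 to 0.63, 0.48 to 0.60, 0.09 to 0.18 and 0.11 to 0.24 in the same order of comparisons without the interaction. Without the gene with the most counts of each family they were 0.71, 0.16, -0.053 (reversed) and 0.50. *H4C14* was left out there and its identical copy *H4C15* kept, so that these values depend on how reads were split.

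With the replicate block, 3 genes (*H2BC5*, *H2AC6* and *H3C6*) were higher after 5-FU in *WT* cells, the added H4 pair was at 0.58 (below the minimum fold change), and no other count moved by more than 1.5 times. With the numbers of the column headers as block, chosen after seeing the data, 4 genes were higher. Deviations of libraries with the same number in the title correlated by -0.09 to 0.08 in 15 pairs. Whether such libraries shared a batch or a clone is not known.

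Depth limits these genes, as 1 count equals 0.0259 to 0.0441 CPM and 8 of the 14 had under 20 counts in some library. The causes of these differences were not tested.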

Other observations

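Genes beside the histone clusters are given for comparison, as they share the chromosomal neighborhood but not the stem-loop. Of 15 tested near the cluster on chromosome 6, 1 was called higher and 2 lower after 5-FU in *WT* cells, and 0 higher and 1 lower in *KO* cells (edgeR; 2 higher at an unadjusted p < 0.05 and 0 by DESeq2 in the latter). Of all genes, 18.5% were called higher and 9.38% lower in *WT* cells and 13.3% and 12% in *KO* cells. *BTN1A1*, a butyrophilin gene, rose by 1.43 on the log2 scale in *WT* cells from 1.67 to 4.48 CPM (FDR 9.02e-06, edgeR). *HFE*, an iron regulator whose exons overlap those of the long *H2BC4* transcripts, fell by 0.97 in *WT* and by 1.57 in *KO* cells, whereas *H2BC4* differed by -0.25 and -0.19 (FDR 0.736 and 0.791, edgeR). Of 9 tested near the cluster on chromosome 1, 3 were called lower and 0 higher after 5-FU in each genotype (edgeR; 1 higher at an unadjusted p < 0.05 in each, 0 by DESeq2). The largest decrease was that of *ANP32E*, a chaperone that removes H2A.Z, in *WT* cells, by 1.27, and that of *MTMR11*, a myotubularin-related gene, in *KO* cells, by 0.89.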
